A study of Mus musculus with 14 samples.

Results

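The cell cycle, E2F and polyploidy genes examined here are 36 mouse genes chosen by symbol: cyclins and cyclin-dependent kinases (CDKs), E2F transcription factors and their pocket-protein partners, DNA replication genes, mitosis genes and CDK inhibitors. Of these, 33 had a named row on the array, among 19505 named genes in all; Ccnd1, Ccnb1 and Foxm1 were not analysed here. Their RNA was measured in liver of male mice on a C57BL/6 background, homozygous for floxed AMPK alpha1 and alpha2 genes (Prkaa1 and Prkaa2), which encode the catalytic subunits of the energy-sensing kinase AMPK. The knockout group (8 samples) received AAV8-TBG-Cre, an adeno-associated virus that expresses Cre recombinase from the hepatocyte-directed TBG promoter, and the control group (6 samples) received the AAV8-TBG empty vector. All mice of both groups carried the floxed alleles and were fed a high-fat diet (60% of calories) from 6 weeks of age for 4 weeks before the injection at 10 weeks. Metformin then followed in every mouse for 3 weeks (50 mg/kg daily), and a 16 h fast preceded liver collection. The labels give the age as 4 months, whereas the protocol adds up to 13 weeks. No liver without metformin was analysed here. The samples were whole liver, so they also hold cells in which the TBG promoter is not meant to be active.

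Progress through the cell cycle starts when cyclin D with Cdk4 or Cdk6, and then cyclin E with Cdk2, phosphorylate the pocket proteins of the Rb family, which release E2F factors to switch on DNA replication genes. Cdk1 with cyclins A and B then drives mitosis. Adult hepatocytes are mostly quiescent, and in mice many become polyploid when cytokinesis fails, a step that the atypical repressors E2f7 and E2f8 promote in the mouse liver by restraining cytokinesis genes.

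Values are the deposited log2 array values, and each difference is the knockout mean minus the control mean in log2 units, ± SE. The arrays formed 2 sets: set 1 held knockout 1 to 4 and control 1 to 3, and set 2 held knockout 5 to 8 and control 4 to 6. Arrays of the same set correlated at 0.988 to 0.994 and arrays of different sets at 0.951 to 0.963, and the array set was a term in the limma fit. What the sets are is not given in the labels, so knockout and control levels are set against each other within a set. Prkaa2 fell by 1.13 ± 0.08 (adjusted p = 1.92e-06) and Prkaa1 by 0.67 ± 0.13 (adjusted p = 0.0302) in that fit, and all 8 knockout livers lay below every control of their own set for both genes. The Prkaa1 call was lost without any 1 of knockout 2, 4 and 5 or control 1, 2, 4, 5 and 6 (adjusted p up to 0.077), with a difference of -0.73 to -0.58 over all 14 omissions, while Prkaa2 kept its call in all 14. Without the set term the adjusted p was 0.519 for Prkaa2 and 0.987 for Prkaa1. The 6 hepatocyte markers (Alb, Apoa1, Ttr, Hnf4a, Cps1 and Serpina1c) averaged 12.48 to 12.95 in knockout livers and 12.47 to 12.93 in control livers. Control 1 (23) and control 4 (22.1) scored on principal component 2 away from the remaining arrays (-13.8 to 8.4), and each had the lowest liver endothelium markers of its set. The labels do not state 1 mouse per sample, and p-values therefore reflect sample-to-sample spread that may in part be technical.

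One of the 33 genes passed the threshold in the knockout livers: E2f8, the atypical E2F repressor, fell by 0.82 ± 0.17 to 0.565 of the control level (limma, adjusted p = 0.0389). No member rose. Over all 19505 genes the same fit called 0.702%, with 0.272% lower and 0.431% higher. Differences of the 33 genes ran from -0.82 to 0.32, with a median of 0.03 and 19 of 33 above 0, beside a median of 0.00 and 50.6% above 0 over all genes. At an unadjusted p under 0.05 there were 2 members higher (Mcm2 and Mcm6) and 3 lower (E2f8, Aurka and Cdkn2c), 5 of 33 in all. Of all genes 10.4% had such a p, 5.53% higher and 4.83% lower. Within set 1 alone 5 members reached it (8.63% of all genes), and within set 2 alone 3 did (6.58% of all genes), with no member past the adjusted threshold in either. In whole liver, fewer cells of a type and less RNA per cell cannot be told apart.

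**Figure D1:**
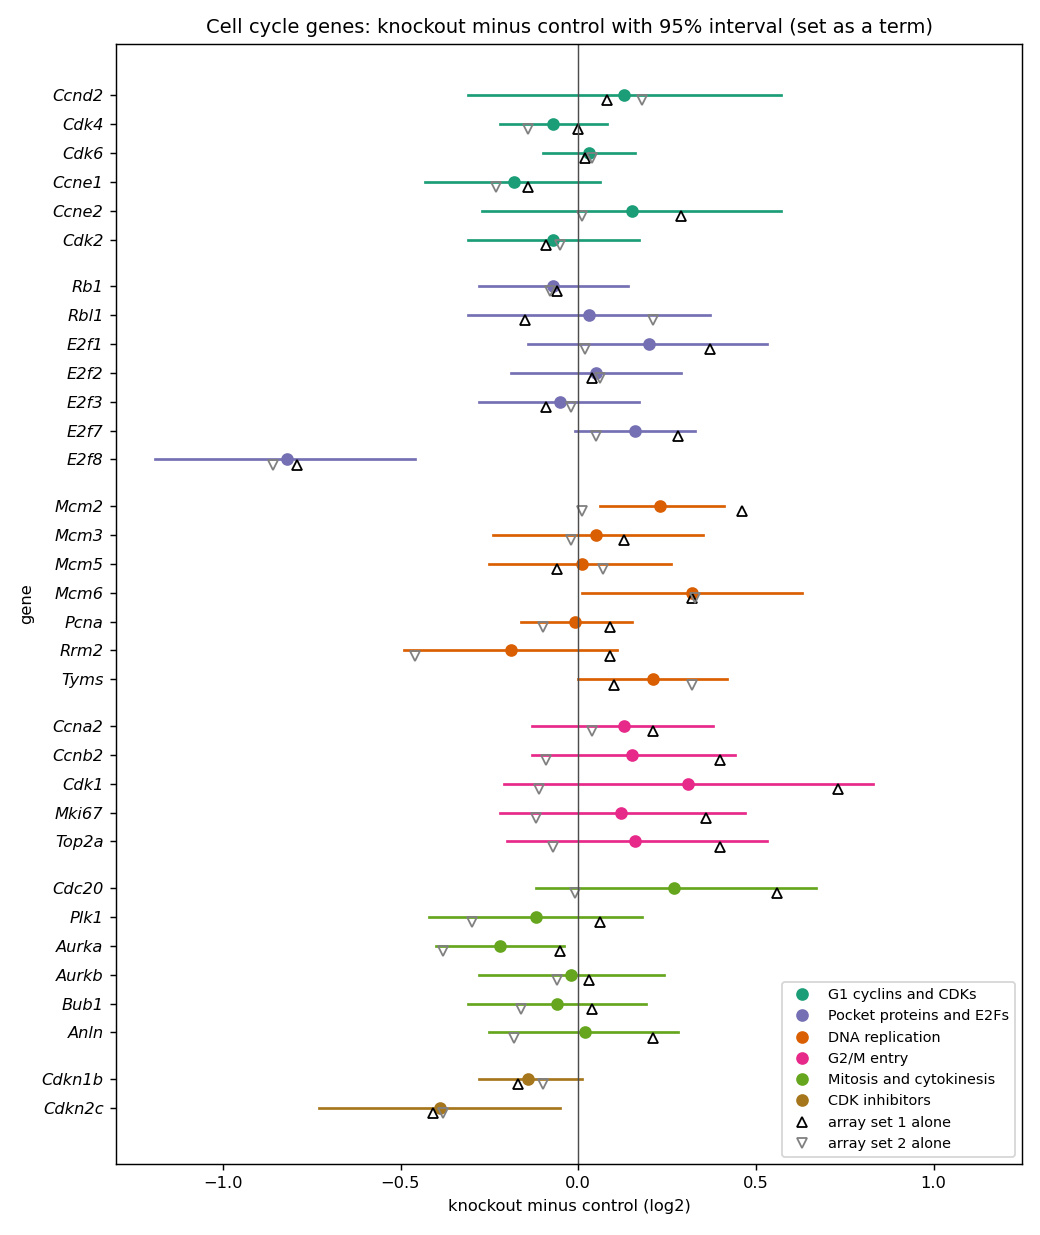
Difference between knockout and control livers for each of the 33 genes (x axis, log2 scale), grouped by role down the y axis. Filled points are the fit with the array set as a term, lines are its 95% interval, and open triangles are each array set alone (pointing up for set 1, down for set 2). E2f8 lies furthest below 0, at -0.82, and both of its triangles lie beside its point.

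Among the E2F and pocket-protein genes, E2f8 passed the threshold and its closest relative E2f7 did not. E2f8 measured 5.51, 5.34, 4.64 and 4.60 in knockout 1 to 4, against 5.94, 6.03 and 5.46 in control 1 to 3. Its set 2 values were 6.12, 6.47, 5.82 and 6.59 in knockout 5 to 8, against 7.27, 7.34 and 6.71 in control 4 to 6. All knockout livers but knockout 1 lay below every control of their set, and knockout 1 (5.51) overlapped control 3 (5.46). The difference was -0.79 ± 0.24 in set 1 and -0.86 ± 0.21 in set 2 (adjusted p = 0.456 and 0.529 within each set alone), and its change between sets was -0.07 ± 0.35 (interaction, adjusted p = 0.998). The limma call was lost without any 1 of control 1, 2, 4 and 5 or knockout 3, 4, 5, 6 and 7 (adjusted p 0.0509 to 0.104), although the difference stayed between -0.90 and -0.75. It was also lost without the set term (adjusted p = 1.0), without control 1 and control 4 together (-0.75, adjusted p = 0.169), without knockout 7 and 8 (-0.80, adjusted p = 0.0981), and with the knockout samples of repeated description averaged (adjusted p = 0.0839).

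E2f7, the other atypical E2F, measured 5.71, 5.54, 5.48 and 5.84 in knockout 1 to 4, against 5.29, 5.54 and 5.25 in control 1 to 3. Set 2 gave 6.05, 6.10, 5.95 and 6.09 in knockout 5 to 8, against 6.01, 5.96 and 6.03 in control 4 to 6. The groups overlapped in both sets, and the difference of 0.16 ± 0.08 (adjusted p = 0.504) had a 95% interval of -0.01 to 0.33 in the fit of both sets. That interval does not overlap the one of E2f8 (-1.19 to -0.46). Of the activator E2Fs, which switch on replication genes, E2f1 differed by 0.20 ± 0.16, E2f2 by 0.05 ± 0.12 and E2f3 by -0.05 ± 0.11. The pocket-protein genes Rb1 (-0.07 ± 0.10) and Rbl1 (0.03 ± 0.16) likewise did not pass. Of these 7 genes, Rbl1, E2f1, E2f2 and E2f7 were dim, with a mean below 5.79, the middle of the array medians. E2f8 averaged 5.99 over all arrays, but its set 1 means were 5.02 in knockout and 5.81 in control livers. Its set 1 knockout values thus also lay in the dim range, and the background level of the arrays is not known here.

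The stretches upstream of E2f8, E2f7, Cdk1 and Mcm2 are shown. They set the gene that fell beside its relative, a mitosis gene and a replication gene. Mcm2 was among the members described in full, and Cdk1 was chosen after its values were seen. Each is the 250 bases before the transcript start (RefSeq, GRCm38.p6), 5′ to 3′ along the gene's own strand. Capitals mark the E2F words (TTTCCCGC, TTTGGCGC, TTTCGCGC or TTTGCCGC) and the CHR words (TTTGAA or TTCGAA), on either strand. The E2F words are exact forms of the recognition motif of E2F factors, and forms with other letters were not searched. The CHR (cell cycle genes homology region) is a motif of promoters active in late cell cycle phases.
E2f8 (chr7:48881597-48881846, minus strand): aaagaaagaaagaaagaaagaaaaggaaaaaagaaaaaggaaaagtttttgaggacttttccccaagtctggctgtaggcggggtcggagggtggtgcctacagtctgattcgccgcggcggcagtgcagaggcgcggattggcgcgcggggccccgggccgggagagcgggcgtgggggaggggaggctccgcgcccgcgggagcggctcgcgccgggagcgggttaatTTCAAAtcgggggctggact
E2f7 (chr10:110745189-110745438, plus strand): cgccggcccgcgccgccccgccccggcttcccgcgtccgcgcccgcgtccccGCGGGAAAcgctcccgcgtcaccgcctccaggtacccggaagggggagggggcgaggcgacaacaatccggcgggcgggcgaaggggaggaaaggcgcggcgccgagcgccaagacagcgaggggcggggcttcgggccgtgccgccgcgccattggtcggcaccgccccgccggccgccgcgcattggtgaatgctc
Cdk1 (chr10:69352913-69353162, minus strand): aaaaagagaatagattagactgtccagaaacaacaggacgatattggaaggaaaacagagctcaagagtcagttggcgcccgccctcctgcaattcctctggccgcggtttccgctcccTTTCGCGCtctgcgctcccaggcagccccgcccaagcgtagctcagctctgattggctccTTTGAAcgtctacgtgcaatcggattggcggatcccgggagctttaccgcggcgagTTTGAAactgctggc
Mcm2 (chr6:88898781-88899030, minus strand): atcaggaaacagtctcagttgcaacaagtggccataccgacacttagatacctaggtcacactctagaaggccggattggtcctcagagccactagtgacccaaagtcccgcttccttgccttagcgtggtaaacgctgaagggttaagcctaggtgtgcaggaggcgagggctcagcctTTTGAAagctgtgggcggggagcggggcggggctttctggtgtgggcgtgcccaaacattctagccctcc
E2f8 held a CHR word starting 20 bases before the start, on the opposite strand, and none of these exact E2F words in this stretch. That does not mean that E2f8 lacks an E2F site, since a site with other letters would be missed. E2f7 held an E2F word starting 198 bases before its start and no CHR word. Cdk1 held an E2F word at 131 bases and CHR words at 71 and 15 bases before the start, and Mcm2 a CHR word at 70 bases.

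Over the window from 250 bases before to 50 bases after the start, searched on both strands, 28 measured members had an entry in the RefSeq table. An E2F word was present for 9 of 28 (32.1%, exact 95% interval 15.9% to 52.4%), against 531 of 15691 named genes (3.38%). The 9 were Cdk1, Cdk2, E2f2, E2f3, E2f7, Mcm3, Mcm5, Mcm6 and Rbl1. A CHR word was present for 13 of 28 (46.4%, 27.5% to 66.1%), against 3068 of 15691 genes (19.6%). These 13 were Anln, Aurka, Bub1, Ccnb2, Cdc20, Cdk1, E2f2, E2f3, E2f8, Mcm2, Mki67, Plk1 and Top2a. The CCAAT box (CCAAT) was present for 21 of 28 (75.0%, 55.1% to 89.3%), against 6617 of 15691 genes (42.2%). Words on opposite strands can overlap, as TTTGGCGC and TTTCGCGC do upstream of Mcm5 and Mcm6. The 13 members with a CHR word had a median difference of 0.21 in set 1 and -0.11 in set 2, and the 15 without one 0.02 and -0.02. In the fit of both sets the medians were 0.05 with the word and 0.01 without it. All of the 13 but E2f2, E2f3, E2f8 and Mcm2 are genes of mitotic entry and mitosis, described below. This split thus largely repeats theirs, and a part of the word itself was not tested. The 9 members with an E2F word had medians of 0.04 and 0.05, and the 19 without one 0.09 and -0.12.

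None of the 6 measured G1 genes passed the threshold, and their differences ran from -0.18 to 0.15 with a median of -0.02. Of the kinase genes, Cdk4 differed by -0.07 (95% interval -0.22 to 0.08), Cdk6 by 0.03 (-0.10 to 0.16) and Cdk2 by -0.07 (-0.31 to 0.17). The cyclin E genes, which open S phase with Cdk2, were at -0.18 ± 0.12 for Ccne1 and 0.15 ± 0.20 for Ccne2. For Ccnd2, a D-type cyclin, the difference was 0.13 ± 0.21, and control 1 (6.57) and control 4 (5.79) were its lowest livers in their sets. Without these 2 arrays the Ccnd2 difference was -0.26, so its sign rested on them.

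**Figure D2:**
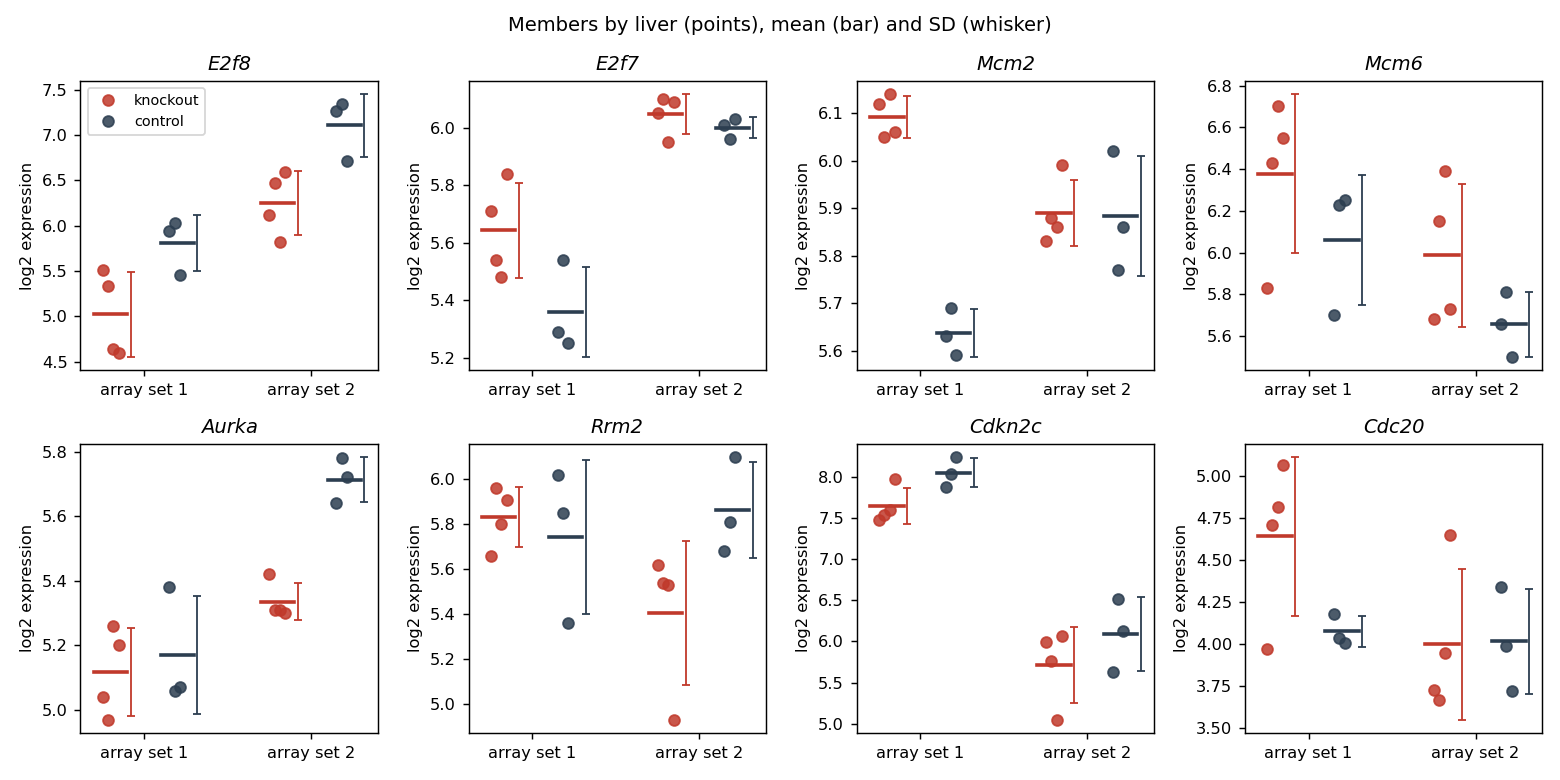
Log2 expression (y axis) of 8 members in every liver, with knockout left of control in each array set (x axis). Points are livers, bars are means and whiskers are SD (n = 4 knockout and 3 control livers per set). E2f8 is lower in knockout in both sets, and Mcm2 is higher in set 1 with overlapping groups in set 2.

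DNA replication genes had 5 of 7 differences above 0 and a median of 0.05, and none passed the threshold. Mcm2, a subunit of the MCM helicase that unwinds DNA at replication forks, measured 6.12, 6.05, 6.14 and 6.06 in knockout 1 to 4, against 5.63, 5.69 and 5.59 in control 1 to 3. Values in set 2 were 5.83, 5.88, 5.86 and 5.99 in knockout 5 to 8, against 6.02, 5.77 and 5.86 in control 4 to 6. The groups were thus fully apart in set 1 and overlapped in set 2. Non-overlap in set 1 was seen with knockout higher for 5.47% and with knockout lower for 4.11% of all genes, and among the 33 members for Mcm2 and Cdkn1b, 1 in each direction. The Mcm2 difference was 0.46 ± 0.08 in set 1 (adjusted p = 0.234) and 0.01 ± 0.12 in set 2 (adjusted p = 0.996). The change between sets was -0.45 ± 0.13 (interaction, unadjusted p = 0.00332, adjusted p = 0.998), which did not pass. In the fit of both sets the difference was 0.23 ± 0.08 (adjusted p = 0.293).

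Mcm6, a further subunit of that helicase, measured 5.83, 6.43, 6.70 and 6.55 in knockout 1 to 4, against 5.70, 6.23 and 6.25 in control 1 to 3. In set 2 the values were 5.68, 6.15, 6.39 and 5.73 in knockout 5 to 8, against 5.66, 5.81 and 5.50 in control 4 to 6. Knockout livers were among both the high and the middle values, and the groups overlapped in both sets. The difference was 0.32 ± 0.15 (adjusted p = 0.457), with 0.32 in set 1 and 0.33 in set 2. Among the members, the helicase subunits Mcm3 (0.05 ± 0.14) and Mcm5 (0.01 ± 0.12) had intervals that spanned 0, as did the subunit Mcm4 of the other cell cycle genes (0.07 ± 0.23), named after its values were seen.

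Rrm2, a subunit of the ribonucleotide reductase that makes DNA precursors, measured 5.66, 5.96, 5.80 and 5.91 in knockout 1 to 4, against 6.02, 5.85 and 5.36 in control 1 to 3. Its set 2 values were 5.62, 5.54, 5.53 and 4.93 in knockout 5 to 8, against 5.68, 5.81 and 6.10 in control 4 to 6. All 4 knockout livers of set 2 lay below every control there, while the groups overlapped in set 1. The difference was 0.09 ± 0.16 in set 1 and -0.46 ± 0.18 in set 2 (adjusted p = 0.928 and 0.72), and the change between sets did not pass (unadjusted p = 0.0498, adjusted p = 0.998). Pcna, the sliding clamp of DNA polymerase, differed by -0.01 (95% interval -0.16 to 0.15). Tyms, which makes thymidylate, differed by 0.21 ± 0.10 (adjusted p = 0.491).

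The genes of mitotic entry and mitosis mostly lay above 0 in set 1 and below 0 in set 2, and none passed the threshold. In set 1, 10 of the 11 measured genes (Ccna2, Ccnb2, Cdk1, Mki67, Top2a, Cdc20, Plk1, Aurka, Aurkb, Bub1 and Anln) had a difference above 0, with a median of 0.21, whereas in set 2 it was 1 of 11, with a median of -0.11. Over all genes 51.7% of differences lay above 0 in set 1 and 50.1% in set 2. In all, 9 of these 11 genes were above 0 in set 1 and below 0 in set 2, as were 23.1% of all genes. The 11 genes were measured in the same livers, so they are not 11 independent observations. The lowest adjusted p of the 11 was 0.539 in set 1, 0.574 in set 2 and 0.998 for the change between sets. Over all genes 0.0103% passed in each set alone, and none for the change between sets, where 4.83% had an unadjusted p under 0.05. Livers of set 1 differed among themselves. The mean of the 11 genes, relative to the controls of the set, was 0.28, 0.52 and 0.39 in knockout 2, 3 and 4 but -0.11 in knockout 1. In set 2 it was -0.08, -0.07, -0.22 and -0.17 in knockout 5 to 8. The controls spread from -0.15 to 0.11 in set 1 and from -0.14 to 0.10 in set 2, so knockout 1 lay within the control range of its set. Knockout 3 was the highest liver of set 1 for 5 of the 11 genes, and control 3 the lowest for 5. Without control 1 the set 1 median of the 11 was 0.31 (10 above 0), and without control 4 the set 2 median was -0.13 (3 above 0).

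**Figure D3:**
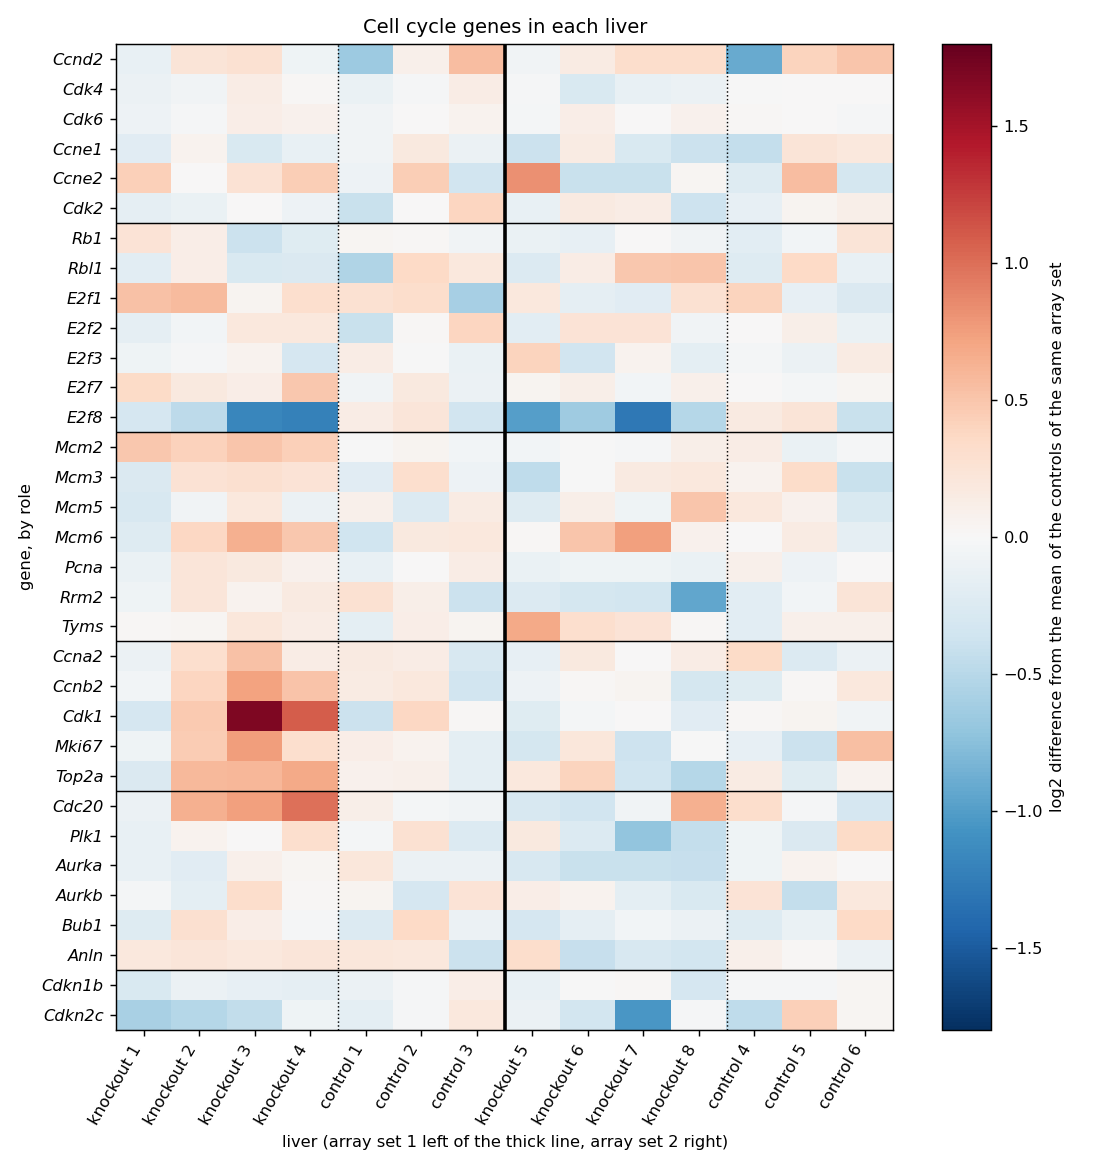
Each cell gives one gene (y axis, grouped by role) in one liver (x axis, knockout left of control in each array set) as the log2 difference from the mean of the controls of the same set. The E2f8 row is below 0 in all knockout livers, and the red block at Cdk1, Ccnb2, Mki67, Top2a and Cdc20 lies in knockout 2, 3 and 4.

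Cdk1, the kinase that drives entry into mitosis, showed this spread most, and was chosen after its values were seen. It measured 4.07, 4.84, 6.05 and 5.46 in knockout 1 to 4, against 3.99, 4.74 and 4.39 in control 1 to 3. Set 2 gave 3.85, 4.03, 4.08 and 3.86 in knockout 5 to 8, against 4.09, 4.11 and 4.00 in control 4 to 6. Knockout 3 and 4 were high and the other 12 livers lay between 3.85 and 4.84. The SD was 0.85 in knockout and 0.37 in control livers of set 1, and 0.12 in knockout and 0.05 in control livers of set 2. The difference was 0.73 ± 0.40 in set 1 and -0.11 ± 0.12 in set 2, and 0.31 ± 0.24 over both (adjusted p = 0.731).

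Cdc20, an activator of the anaphase-promoting complex, had a like spread. It measured 3.97, 4.71, 4.82 and 5.07 in knockout 1 to 4, against 4.18, 4.04 and 4.01 in control 1 to 3. Values in set 2 were 3.73, 3.67, 3.95 and 4.65 in knockout 5 to 8, against 4.34, 3.99 and 3.72 in control 4 to 6. Knockout 2 to 4 and knockout 8 were high, and knockout 1 was below all controls of its set. The difference was 0.56 ± 0.22 in set 1 (adjusted p = 0.539) and -0.01 ± 0.24 in set 2. The proliferation marker Mki67 (0.12 ± 0.16), the DNA topoisomerase Top2a (0.16 ± 0.17) and the mitotic cyclins Ccna2 (0.13 ± 0.12) and Ccnb2 (0.15 ± 0.14) did not pass over both sets. In set 1, 3 of 4 knockout livers lay above every control for each of Ccnb2, Cdk1, Mki67, Top2a and Cdc20. The same held for E2f7 and Mcm6 among the other members, and for Mcm2 all 4 did. How often this occurs over all genes was not counted.

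Aurka, a kinase of the mitotic spindle, was on the other side of 0. It measured 5.04, 4.97, 5.26 and 5.20 in knockout 1 to 4, against 5.38, 5.06 and 5.07 in control 1 to 3. In set 2 the values were 5.42, 5.31, 5.31 and 5.30 in knockout 5 to 8, against 5.64, 5.78 and 5.72 in control 4 to 6. The groups overlapped in set 1 and were fully apart in set 2. Non-overlap in set 2 with knockout lower was seen for 4 of the 33 members (Cdk4, E2f8, Rrm2 and Aurka) and for 3.71% of all genes, and with knockout higher for 0 members and 3.8% of all genes. The Aurka difference was -0.05 ± 0.12 in set 1, -0.38 ± 0.11 in set 2 and -0.22 ± 0.08 over both (adjusted p = 0.348). For the genes of cytokinesis and the spindle checkpoint the differences were 0.02 ± 0.12 for Anln, a scaffold of the contractile ring, -0.02 ± 0.12 for Aurkb, a kinase of the midzone, and -0.06 ± 0.12 for Bub1, a checkpoint kinase. Plk1, a further mitotic kinase, was at -0.12 ± 0.14. Of the 11 genes, 10 were dim, all but Ccnb2, against 9404 of the 19505 genes.

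**Figure D4:**
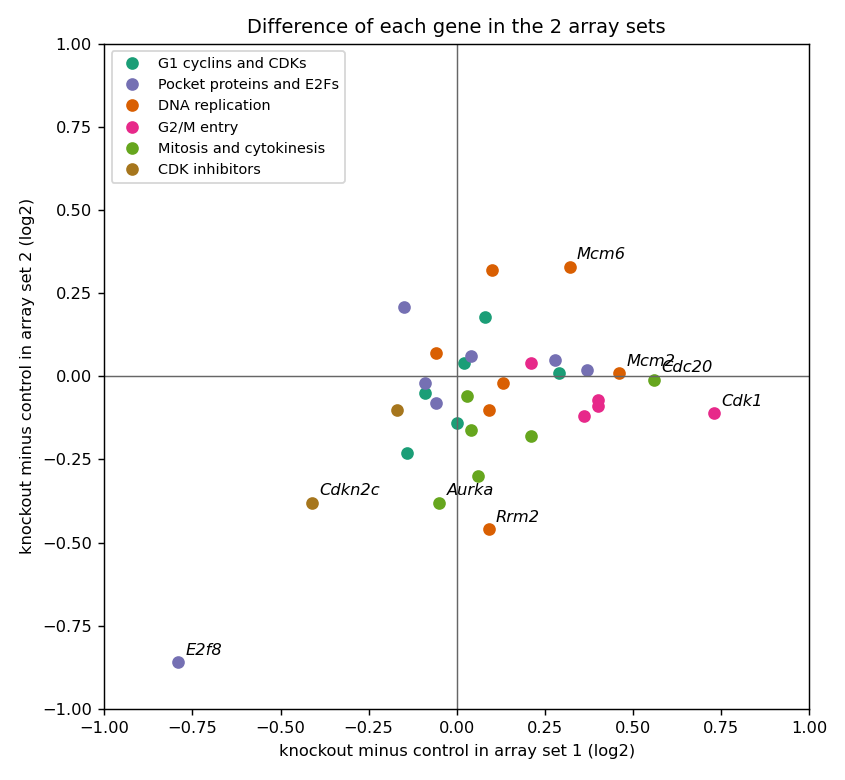
Knockout minus control in array set 1 (x axis, log2) against array set 2 (y axis, log2), 1 point per gene, coloured by role. E2f8 and Cdkn2c lie below 0 in both sets, Mcm6 above 0 in both, and most genes of G2/M entry and mitosis lie right of 0 in set 1 and below 0 in set 2. No control liver is shared between the axes.

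Levels of markers of other liver cells also varied between these livers. The 6 Kupffer cell markers (Clec4f, Adgre1, Cd5l, Vsig4, Csf1r and Timd4) averaged 8.10, 8.62, 8.92 and 8.46 in knockout 1 to 4, against 8.02, 8.85 and 8.78 in control 1 to 3. Knockout 3 was thus the highest and control 1 the lowest of set 1. Set 2 averages of these markers were 8.43, 8.80, 8.97 and 8.81 in knockout 5 to 8, against 8.35, 8.74 and 8.76 in control 4 to 6. Knockout 7 thus had the highest Kupffer cell markers of set 2 but the lowest mean of the 11 genes (-0.22). None of the 6 Kupffer cell markers was called. The 6 liver endothelium markers averaged 7.54 to 8.26 in knockout and 7.12 to 8.42 in control livers of set 1, and 8.46 to 8.89 in knockout and 8.12 to 8.83 in control livers of set 2. The 6 T and NK cell markers, 5 of them dim, averaged 5.08 to 5.17 in knockout and 4.75 to 5.22 in control livers of set 1, and 4.45 to 4.79 in knockout and 4.23 to 4.57 in control livers of set 2. The 3 measured of 5 B cell markers, all dim, averaged 5.14 to 5.73 in knockout and 4.99 to 5.45 in control livers of set 1, and 4.92 to 5.28 in knockout and 4.71 to 4.84 in control livers of set 2. These lymphocyte ranges overlapped between groups in set 1, and in set 2 the B cell range of knockout livers lay above that of controls. Neutrophil markers (4 measured of 5, all dim) averaged 4.61 to 5.63 in knockout and 5.24 to 5.39 in control livers of set 1, with 4.61 in knockout 1, and 4.37 to 4.71 in knockout and 4.46 to 4.66 in control livers of set 2. Knockout 1 was the knockout liver of set 1 with the lowest mitosis genes. Within its group it had the lowest Kupffer cell, neutrophil, T and NK cell (5.08) and B cell (5.14) markers. It also had the highest bile duct markers (6.95, against 5.93 to 5.94 in knockout 2 to 4). Its liver endothelium markers (7.54) equalled those of knockout 4, in which the 11 genes were at 0.39. For stellate cell and erythroid markers it was not the lowest. Among the controls of set 1 the order differed for Kupffer cell markers. Control 1 had the lowest of these (8.02) with the 11 genes at 0.04. Control 3 had the lowest 11 genes (-0.15) with Kupffer cell markers at 8.78, and it had the highest bile duct markers of these controls (6.99). Stellate cell markers (6) averaged 7.52 to 7.92 in knockout and 7.45 to 8.08 in control livers of set 1, and 7.89 to 8.36 in knockout and 7.97 to 8.52 in control livers of set 2. Erythroid markers (4 of 5) averaged 7.28 to 7.42 in knockout and 7.18 to 7.62 in control livers of set 1, and 6.91 to 7.19 in knockout and 6.99 to 7.35 in control livers of set 2. Bile duct markers (4 of 5) averaged 5.93 to 6.95 in knockout and 5.79 to 6.99 in control livers of set 1, and 5.44 to 6.03 in knockout and 5.76 to 6.01 in control livers of set 2. No marker in any list was called, and the part of these cells in the mitosis values was not tested.

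**Figure D5:**
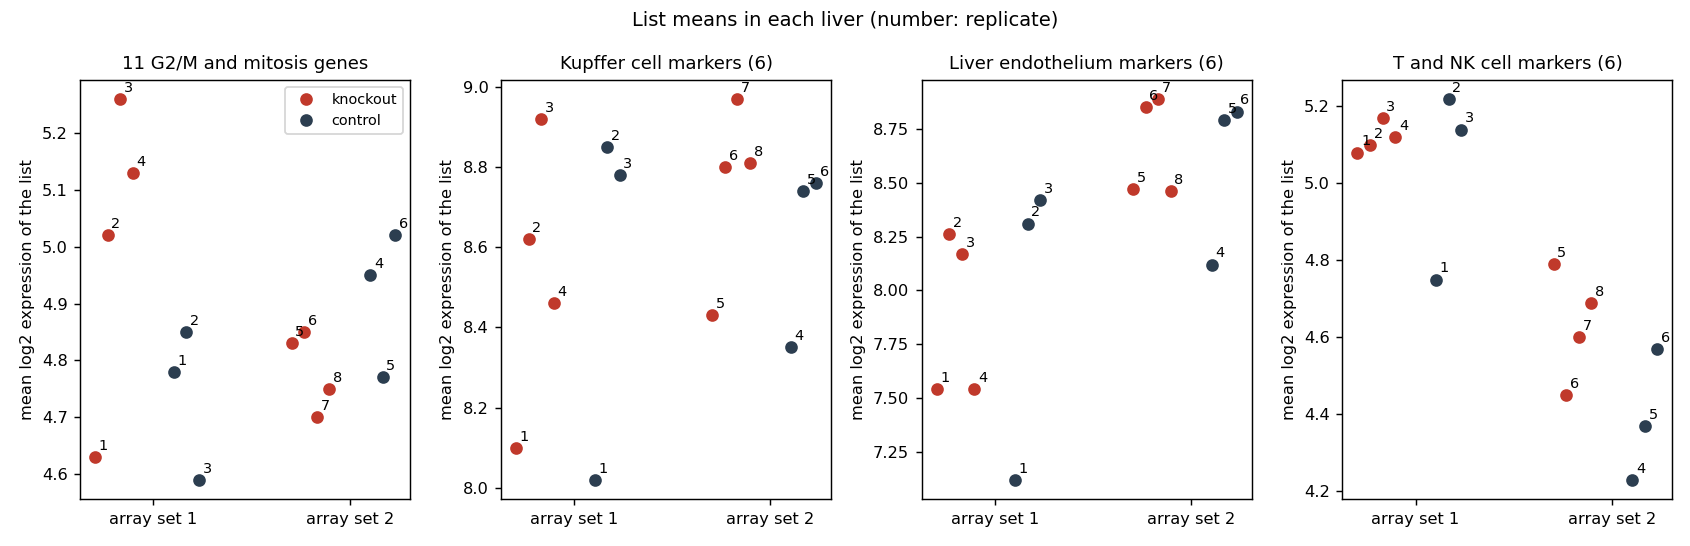
Mean log2 expression (y axis) of the 11 genes of G2/M entry and mitosis and of 3 marker lists in every liver, knockout left of control in each array set (x axis); the number beside a point is the replicate. Knockout 3 is highest in set 1 for the 11 genes (5.26) and for the Kupffer cell markers (8.92), and knockout 1 is low for both (4.63 and 8.10). Knockout 7 is highest in set 2 for the Kupffer cell markers (8.97) and lowest there for the 11 genes (4.7).

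Of the CDK inhibitors among the members, Cdkn2c, which encodes p18 and blocks Cdk4 and Cdk6, measured 7.47, 7.54, 7.60 and 7.97 in knockout 1 to 4, against 7.88, 8.03 and 8.24 in control 1 to 3. Its set 2 values were 5.99, 5.76, 5.05 and 6.07 in knockout 5 to 8, against 5.63, 6.52 and 6.13 in control 4 to 6. The groups overlapped in both sets, and knockout 7 was the lowest liver. The difference was -0.39 ± 0.16 (adjusted p = 0.392), with -0.41 ± 0.14 in set 1 and -0.38 ± 0.27 in set 2. Cdkn1b, which encodes the CDK inhibitor p27, lay in set 1 in all 4 knockout livers (8.29 to 8.46) below the lowest control (8.46 as well after rounding), and in set 2 the groups overlapped. Its difference was -0.14 ± 0.07 (adjusted p = 0.534).

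A further inhibitor, Cdkn1a, which encodes p21 and is a target of p53, was the only 1 of 67 other cell cycle genes that passed. It measured 7.05, 7.33, 7.42 and 7.09 in knockout 1 to 4, against 6.79, 6.62 and 6.08 in control 1 to 3, and 6.76, 6.62, 6.89 and 6.96 in knockout 5 to 8, against 5.77, 6.26 and 6.07 in control 4 to 6. The groups did not overlap in either set, as was the case in 1.31% of all genes and in 0 of the 33 members, and Cdkn1a rose by 0.75 ± 0.11 (adjusted p = 0.00873). It kept an adjusted p of at most 0.0283 without any 1 array, and lost the call without the set term (adjusted p = 0.519). Whether it was called with the replicate block (2 genes called in all) or without knockout 7 and 8 (12 genes) is not given here. The other 4 inhibitors (Cdkn1c, Cdkn2a, Cdkn2b and Cdkn2d) had differences of -0.06 to 0.13.

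The 67 other cell cycle genes, not among the 33, had a median difference of 0.01 with 37 above 0. At an unadjusted p under 0.05, 9 of the 67 were higher and 2 lower, beside 5.53% and 4.83% of all genes. Of 14 replication genes 10 were above 0 (median 0.13) and 0 passed, while 4 were higher and 0 lower at such a p. The smallest p was that of Prim1, a primase subunit, at 0.30 ± 0.11 (adjusted p = 0.284). Among 11 G1, E2F and DREAM genes 6 were above 0, and Tfdp1, the dimerization partner of E2Fs, was at 0.25 ± 0.08 (adjusted p = 0.213). Among 8 checkpoint genes 4 were above 0, and Wee1, the kinase that holds Cdk1 inactive, was at 0.40 ± 0.11 (adjusted p = 0.155). Of 23 mitosis genes 12 were above 0, with Hmmr, a spindle protein, at 0.26 ± 0.11 (adjusted p = 0.443), and of 6 cytokinesis genes 2, with Kif20a, a kinesin of the midzone, at 0.28 ± 0.18 (adjusted p = 0.648). Prim1, Tfdp1, Wee1, Hmmr and Kif20a thus did not pass the threshold. The 29 mitosis and cytokinesis genes had a median of 0.09 in set 1, with 20 above 0, and of -0.15 in set 2, with 9 above 0. Their mean relative to the controls of the set was -0.05, 0.16, 0.32 and 0.05 in knockout 1 to 4 and -0.17, -0.06, -0.13 and -0.03 in knockout 5 to 8. The controls ran from -0.08 to 0.05 in set 1 and from -0.1 to 0.12 in set 2. Knockout 4 thus lay level with control 1 (0.05) for these genes. Knockout 3 was the highest liver of set 1 for 14 of the 29.

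Levels of several members also differed between the array sets. Over all genes 55.4% differed between the sets (adjusted p under 0.05), as did 18 of the 33 members. The gap, set 2 minus set 1, was largest for Cdkn2c at -1.94, followed by E2f8 at 1.26, Pcna at -1.01 and Cdk6 at 0.96. For E2f8 this gap exceeded the knockout difference, while both groups were present in each set with the same numbers.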

How the data were processed

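Liver RNA of 14 samples was labelled with the Affymetrix GeneChip WT PLUS kit, per the labels' protocols. The deposited values were taken as log2 intensities normalized by RMA, which the submitters' processing notes name beside Partek, with no versions; the log2 scale was inferred from their range (2.13 to 13.8). No further normalization was applied, and the array build is not given in the sources used here. Arrays give no read depth, so the number of samples limits the precision.

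Of 22206 rows, 19572 had 1 symbol in the platform's gene table and 2634 were not named here. Where a gene had several rows (55 genes, E2f3 among them), the row of highest mean stood for it. The 2 groups were set against each other with limma 3.58.1 (lmFit, eBayes; R 4.3.3), the array set being a term, and again inside each set. Adjustment was by the Benjamini-Hochberg method across the 19505 genes at a threshold of 0.05, and intervals are 95%. The fit was also run on simulated data with known changes and independent noise. Such data hold no technical repeats or outlying arrays, so that run checks only the estimates of known changes. The members and lists were chosen with earlier results of these data known, as were the array sets, which the correlations between arrays also separate.

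Members with an unadjusted p under 0.05 in the fit of both sets, in either set or for the interaction were described in full. All measured members are named. Of each list of other genes, up to 4 past the threshold by size, or else the gene with the smallest p, are named, with Cdkn1a, Prkaa1 and Prkaa2 in any case. Knockout 7 and 8 carry the same description numbers as knockout 5 and 6. No arrays held identical values, and each counted as a sample. These pairs correlated at 0.989 and 0.991, within the range of other arrays of a set. Such correlations cannot tell repeats of 1 mouse from different mice. Alternatives covered the model, normalization, filters, weights, rows per gene and arrays left out. Promoter windows came from RefSeq (GRCm38.p6).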

Additional observations from a re-analysis of the deposited data

Results flagged for a closer look

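Within the 4 knockout livers of a set, 5 values stood far from the other 3 by Dixon's gap test, of 99 groups tested, control groups included. Chance alone flags about 1 in 20 groups of independent values, a rate that applies to the knockout groups only. Control livers, pooled over sets after subtracting the mean of the set's controls, gave none. Subtracting a mean of only 3 livers leaves almost no room for a flag, so the test cannot compare control with knockout livers. In set 1, knockout 1 was low for Mcm3 (5.41, against 5.92 to 5.96 in knockout 2 to 4) and for Top2a (4.93, against 5.78 to 5.87). In set 2, knockout 8 was low for Rrm2 (4.93, against 5.53 to 5.62 in the other 3), and knockout 5 was high for Aurka (5.42, against 5.30 to 5.31) and for Anln (4.45, against 3.73 to 3.85).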

How the results depend on the processing

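With the fit of both sets, the members' median difference of 0.03 stayed between 0.01 and 0.03 under the 11 other settings and between -0.01 and 0.05 without any 1 array. The number of genes called, 137, was 0 without the set term (limma, 655 at an unadjusted p under 0.05), 2 with the replicate block, 12 without knockout 7 and 8, 26 without control 1 and control 4, 67 with the repeated descriptions averaged, 222 without genes of a mean under 5.0 (a lower limit than that of the dim genes) and 325 with trend and robust, and 44 to 132 without 1 array. The number of members called, 1 (E2f8), was 0 without the set term, with the replicate block, without knockout 7 and 8, without control 1 and control 4 and with the repeated descriptions averaged, and 0 to 1 without 1 array. E2f8 was -0.68 under the replicate block (adjusted p = 0.261) and -0.80 without knockout 7 and 8 (adjusted p = 0.0981), and its adjusted p lay between 0.0071 and 1.0 over all settings. Same-numbered knockout and control samples correlated at 0.023 to 0.087 in their deviations, with number 4 falling in different sets. Such a check cannot exclude a weak shared factor, and the number entered only the replicate block. In set 1 alone the 2 genes called became 0 without control 1 and 1 without genes of a mean under 5.0, or 0 to 1 without 1 array. In set 2 alone the 2 became 1 without control 4, or 0 to 1 without 1 array. No member was called in any of these, and the medians lay between 0.02 and 0.14 in set 1 and between -0.10 and -0.04 in set 2. The count of other cell cycle genes called, 1, was 0 without the set term and 1 without control 1 and control 4. It was not taken in the other settings.

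Signs of uncalled members near 0 turned. With array weights Rbl1 was -0.03, Pcna 0.01 and Aurkb 0.02. Without control 1 and control 4, Ccnd2 was -0.26, Rbl1 -0.16, E2f2 -0.05 and Aurkb 0.06. With the repeated descriptions averaged, Mcm5 was -0.01 and Pcna 0.01. Without knockout 7 and 8, Rbl1 was -0.11, Mcm3 -0.02, Mcm5 -0.06, Pcna 0.01, Plk1 0.02 and Aurkb 0.06. Under the replicate block, Ccnd2 was -0.09, Rbl1 -0.14, Mcm3 -0.02, Mcm5 -0.01, Pcna 0.03 and Aurkb 0.11. Without 1 array the ranges were -0.08 to 0.26 (Ccnd2), -0.07 to 0.13 (Rbl1), -0.04 to 0.13 (E2f2), -0.06 to 0.05 (Mcm5), -0.15 to 0.02 (Cdk2), -0.05 to 0.03 (Pcna), -0.10 to 0.04 (Aurkb), -0.09 to 0.06 (Anln), -0.03 to 0.14 (Mcm3) and -0.13 to 0.03 (Bub1). Why these values moved was not tested. With a window of 150 bases before the start, 28.6% of members held an E2F word, 46.4% a CHR word and 71.4% a CCAAT box.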
